A study of Rattus norvegicus with 12 samples.

Results

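Star miRNAs are the strands of miRNA hairpins whose names end in an asterisk, such as miR-140*. Their levels were examined in serum and milk whey of lactating F344/N rats. All miRNAs of the array with such a name were taken, which gave 58 star miRNAs beside 330 other rat miRNAs without an asterisk. The same 3 dams gave every sample, so each group held 3 arrays with 1 rat on each. Serum was taken 21 days postpartum, at weaning, and whey was taken 2 days (colostrum), 9 days and 16 days postpartum. The dams were 14 weeks old and 14 days pregnant on arrival. Before each milking they were separated from their litters, injected with oxytocin and lightly anaesthetized with sevoflurane, and milk was stripped by hand. Blood came from the vena cava of the same dams under deep sevoflurane anaesthesia. Fat, casein, cells and debris were removed by centrifugation and filtration, so that whey and serum represent RNA outside intact cells. Every array received 70 ng of total RNA, not the RNA of an equal volume of fluid, and a signal here is therefore a level within the RNA of that fluid. The serum was also taken on a later day than any whey, so fluid and day cannot be told apart in comparisons with serum.

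A miRNA gene is transcribed as a hairpin, from which Drosha and Dicer cut a short duplex of 2 strands. One strand, the guide, is kept by an Argonaute protein and pairs through its seed (bases 2 to 8) with target mRNAs. The other, the passenger, is usually discarded and broken down. Which strand is kept is known to depend on the stability of the duplex ends and on the first base, where Argonaute favours U. The asterisk was given to the strand found less often when the hairpin was first cloned, so the name does not fix which strand prevails in a given tissue or fluid, and later names use -5p and -3p for the arms. In several mammalian tissues the strand called miR-140* is known to outnumber miR-140. Milk carries miRNAs from the mammary epithelium in vesicles and protein complexes, and serum carries those of blood cells, vessels and organs such as liver.

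The star strands that the results turn on are printed with the seed in capitals, 5′ to 3′, from the mature miRNA table of RefSeq (assembly GRCr8), which matched 51 of the 58 star miRNAs. They are the star miRNAs that stood well above background on at least 1 array, together with miR-30c-1*, which shares a seed with miR-30c-2*.
miR-140*: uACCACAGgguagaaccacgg
miR-296*: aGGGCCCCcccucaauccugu
miR-30a*: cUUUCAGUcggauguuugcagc
miR-378*: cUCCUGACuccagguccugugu
miR-99b*: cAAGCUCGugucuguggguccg
miR-181a*: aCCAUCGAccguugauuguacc
miR-29c*: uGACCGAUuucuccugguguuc
miR-30c-1*: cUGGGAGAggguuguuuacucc
miR-30c-2*: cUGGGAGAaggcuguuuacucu

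The opposite strands of those hairpins that are set beside a star below are shown for the same reason.
miR-140: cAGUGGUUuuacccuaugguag
miR-296: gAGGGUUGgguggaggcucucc
miR-378: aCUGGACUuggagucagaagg
miR-99b: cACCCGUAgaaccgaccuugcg
miR-29c: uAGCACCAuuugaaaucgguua
miR-30c: uGUAAACAuccuacacucucagc

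In GRCr8, miR-140* lies at chr19:52375353-52375373 (plus strand) inside the span of Wwp2, which encodes a ubiquitin ligase. miR-378* lies at chr18:57128962-57128983 (minus strand) inside the span of Ppargc1b, a coactivator of energy metabolism genes. miR-99b* lies at chr1:67350108-67350129 (plus strand) inside the span of Spaca6, where let-7e* also maps. miR-30a* at chr9:33233987-33234008 and miR-30c-2* at chr9:33253735-33253756 (both plus strand) are neighbours, and miR-30c-1* lies on another chromosome at chr5:139634467-139634488 (minus strand) inside the span of Nfyc. miR-296* at chr3:183470114-183470134 (minus strand) lay inside no span of a protein-coding or lncRNA gene. The gene table gave spans without exons, so exon or intron was not assigned. Among the 51 matched star miRNAs 33 came from the 3p arm, and 7 began with U, against 28 of 49 matched partners. Of the 15 matched star miRNAs that were detected, 10 came from the 3p arm and 3 began with U. The mature sequence of miR-296* was 66.7% G and C, a share exceeded by 12 of the 341 matched miRNAs of the array, whose median was 47.6%. Among detected star miRNAs, miR-30c-1* and miR-30c-2* shared the seed UGGGAGA. miR-99b* shared AAGCUCG with miR-99a*, which was detected on no array.

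The total signal of a miRNA is the background-subtracted intensity summed over its spots by the scanner software, and detection is the software's call per miRNA and array. Total signals were brought to a common distribution (quantile normalization of the 12 arrays), values under 1 became 1, and all are given as log2. Being well above background on an array required that call for at least 0.5 of a miRNA's spots. The background limit of an array is the dimmest normalized log2 signal among such miRNAs, and it averaged 3.36 in serum, 5.37 in day 2 whey, 4.46 in day 9 whey and 4.36 in day 16 whey. The signal summed over an array was lowest in day 2 whey, between 22491 and 26246, and otherwise lay between 90002 and 161389 (serum), 70752 and 106976 (day 9 whey) or 76845 and 120359 (day 16 whey), so star miRNAs were measured with the least reserve in colostrum. Days 2 and 9 shared a slide, as did day 16 and serum, so day and slide cannot be told apart between day 16 and the earlier days. Of 8 blood markers (miR-451 and miR-144 of red cells, miR-223, miR-142 and miR-150 of white cells, miR-126 of endothelium, miR-122 of liver), 7 were detected on all serum arrays, at 21.34 to 24.2% of the signal, against at most 0.52% on any whey array. Of 8 epithelial markers (miR-200 family, miR-31, miR-203, miR-205), 7 were detected on all arrays of each whey day and 5 on all serum arrays. They held 6.17 to 10.31% of the signal on the whey arrays and 0.15 to 0.37% on the serum arrays.

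Of the 58 star miRNAs, 17 were detected on at least 1 of the 12 arrays (29.3%), against 171 of the 330 other miRNAs (51.8%). In serum 14 star miRNAs were detected on at least 1 of 3 arrays (24.1%), in day 2 whey 6 (10.3%), in day 9 whey 11 (19.0%) and in day 16 whey 11 (19.0%). The corresponding shares of the other miRNAs were 46.7%, 37.0%, 40.3% and 40.0%. Counting only detection on all 3 arrays of a group left 10 star miRNAs in serum, 3 in day 2 whey, 9 in day 9 whey and 11 in day 16 whey. Serum and whey shared 10 detected star miRNAs. The 4 detected in serum alone were let-7d*, miR-23a*, miR-330* and miR-338*, and the 3 detected in whey alone were miR-125b*, miR-181a* and miR-193*. Only miR-140*, miR-296* and miR-30a* were detected on all 12 arrays, and 8 of the 17 stood well above background on at least 1 array. At the other end, let-7d*, miR-23a*, miR-125b* and miR-193* were detected on 1 array each. Their total signals over all arrays were 0.0 to 3.6 for let-7d*, -9.0 to 1.3 for miR-23a*, -5.0 to 1.9 for miR-125b* and -6.5 to 2.1 for miR-193*, so their calls lie at the edge of background.

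All 58 star miRNAs had a partner strand on the array, by the same name in 51 cases, by the name without the hairpin number in 6 and by the opposite arm in 1. Levels of different probes cannot be compared, since each binds its target differently, but the number of arrays with a call can be counted for both strands. The partner was detected on more arrays for 9 of the 17 detected star miRNAs, the star for 6, and 2 were equal. In the first set, let-7d, miR-23a, miR-125b-5p and miR-193, whose stars were called on 1 array, were called on all 12. miR-181a, of a family known for its part in lymphocyte signalling, was called on 12 arrays and its star on 6. In the second set, miR-296* was called on 12 arrays and miR-296 on none, with total signals of miR-296 between -9.7 and -2.0. miR-7a* was called on 9 arrays and miR-7a on 1, miR-99b* on 7 and miR-99b on 2, and miR-330* on 3 and miR-330 on none. miR-140* and miR-378* were called on 12 and 11 arrays, and miR-140 and miR-378 on 11 and 9. For these 6 pairs the strand with the asterisk was thus the one called on more arrays. A call also depends on the probe, so the counts do not show which strand was more abundant. On rat 1 of day 2 miR-140* was called at a total signal of 6.9, whereas miR-140 was not called at 7.6.

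**Figure D1:**
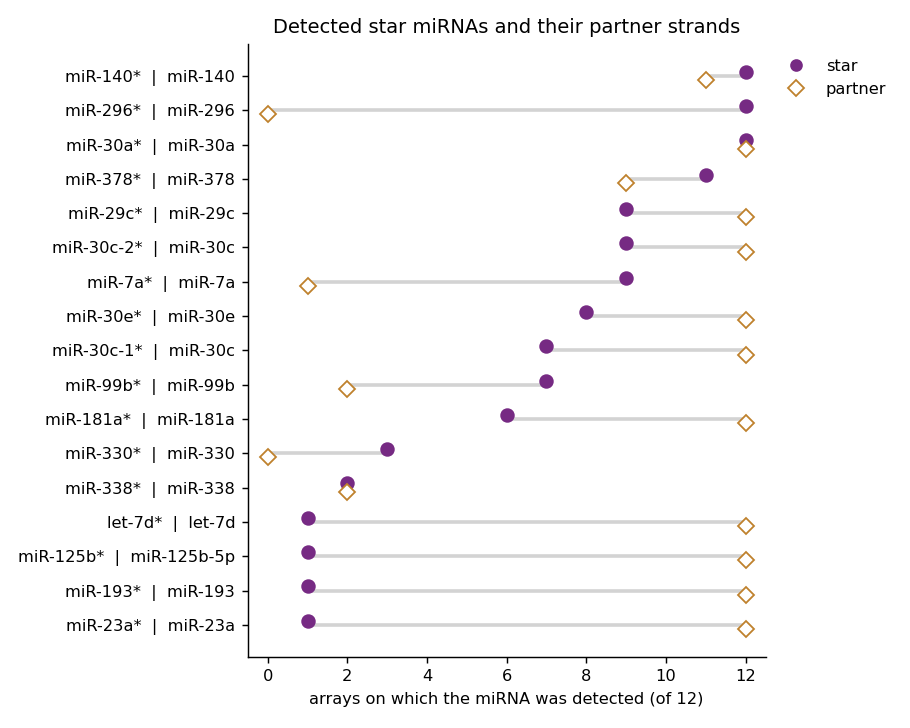
Number of the 12 arrays on which each of the 17 detected star miRNAs (filled circles) and its partner strand (open diamonds) was called by the scanner software; each row is 1 hairpin, and miR-30c is the partner in 2 rows. The star has the higher count for miR-140*, miR-296*, miR-378*, miR-7a*, miR-99b* and miR-330*, and miR-296 and miR-330 were called on no array.

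The other 41 star miRNAs were detected on no array. They were let-7b*, let-7e*, let-7i*, miR-1*, miR-101a*, miR-106b*, miR-124*, miR-126*, miR-129*, miR-135a*, miR-136*, miR-138*, miR-151*, miR-196a*, miR-204*, miR-20a*, miR-21*, miR-218*, miR-22*, miR-24-1*, miR-24-2*, miR-25*, miR-26b*, miR-27a*, miR-28*, miR-29a*, miR-29b-1*, miR-29b-2*, miR-30d*, miR-322*, miR-323*, miR-34c*, miR-363*, miR-376a*, miR-379*, miR-382*, miR-543*, miR-708*, miR-872*, miR-9* and miR-99a*. Of their 492 total signals 393 were below 0, and the range was -11.1 to 10.7 with a median of -4.2. Their partners were detected on at least 1 array for 28 of the 41 and on all 12 arrays for 19. A star strand below the limit of these arrays is not shown to be absent from the fluid.

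The star miRNAs together took a small share of each array's signal, which does not depend on scaling between arrays. The share was 0.868, 1.03 and 0.903% in serum, 1.30, 1.28 and 1.21% in day 2 whey, 0.298, 0.353 and 0.547% in day 9 whey, and 0.313, 0.358 and 0.315% in day 16 whey. The share in serum and colostrum was thus higher than on both later whey days on every array. The summed star signal itself was 292.8 to 318.8 in day 2 whey, where the array totals were lowest. That lay within the 268.4 to 387.1 of day 9 whey and the 240.7 to 430.3 of day 16 whey. Different single strands made up the star signal. In day 2 whey miR-296* held 74.7 to 80.3% of the star signal, whereas in serum miR-140* held 67.0 to 71.0%. Without miR-140* the serum share was 0.252 to 0.341%, which overlapped the 0.277 to 0.514% of day 9 whey and the 0.288 to 0.318% of day 16 whey. In day 9 whey miR-99b* held 18.2 to 38.1% of the star signal and miR-296* 20.4 to 27.8%.

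**Figure D2:**
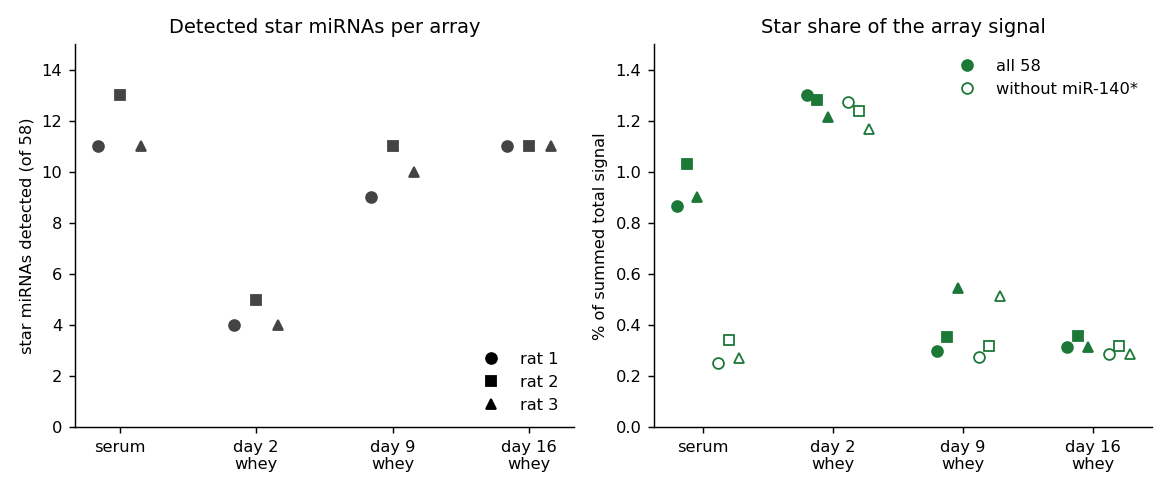
Star miRNAs detected on each array (left, of 58) and their share of the array's summed total signal in percent (right; filled symbols all 58, open symbols without miR-140*), with a symbol per rat. Day 2 whey has the fewest detected star miRNAs (4 or 5 per array) and the highest share, and the serum share drops to 0.252 to 0.341% without miR-140*.

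The comparison of later whey with colostrum asks how the RNA of milk changes after the first days. A linear model (limma) with 4 group means was fitted to all 188 miRNAs with a detection call on any array, among them 17 star miRNAs, with Benjamini-Hochberg adjustment over all 188. In day 9 against day 2 whey 8 star miRNAs rose and 1 fell, so 9 of 17 passed an adjusted p of 0.05, against 45.2% of all tested miRNAs (28.2% rose and 17.0% fell). The median log2 difference was 0.03 over the 17 star miRNAs and 0.08 over all 188. In day 16 against day 2 whey 10 star miRNAs passed, against 55.3% of all, with 8 that rose (32.4% of all) and 2 that fell (22.9% of all). Their median log2 difference was 0.39, against 0.13 over all. The same 8 rose in both comparisons, namely miR-140*, miR-181a*, miR-29c*, miR-30a*, miR-30c-2*, miR-30e*, miR-7a* (whose direction turned with normexp background correction) and miR-99b*. Both comparisons use the same 3 day 2 arrays. None of these 8 was well above background on any day 2 array, where total signal was lowest, and the part of that in the result was not tested.

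miR-296* was the star miRNA that fell in both comparisons and the one that stood well above background on all 12 arrays. Its normalized log2 signals were 9.52, 9.08 and 9.19 in day 2 whey, 7.06, 6.78 and 6.71 in day 9 whey, and 6.92, 6.71 and 6.84 in day 16 whey. The colostrum values did not overlap those of either later day. The log2 difference was -2.41 ± 0.15 (SE, n = 3 rats each; limma adjusted p = 1e-06) for day 9 and -2.44 ± 0.15 (limma adjusted p = 1.2e-06) for day 16 against day 2, with the same direction in 3 of 3 rats. Before normalization its total signals were 70.0, 104.8 and 79.1 in day 9 whey against 235.1, 235.6 and 251.8 in day 2 whey, so the fall was also present in the unscaled values. The total signal of the opposite strand, miR-296, stayed below 0 on every array.

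miR-99b*, from a hairpin that is transcribed with let-7e and miR-125a, stood out in mature milk. Its log2 signals were 0.00, 0.00 and 1.40 in day 2 whey, 6.71, 6.28 and 7.77 in day 9 whey, and 5.18, 5.06 and 5.67 in day 16 whey. It was detected on none of the day 2 arrays and on all 6 later ones, with no overlap. In the quantile normalized values day 9 exceeded day 2 at least 2.93-fold (limma adjusted p = 4.9e-06, 3 of 3 rats). This takes the background limit of the day 2 arrays in place of their dimmer signals. Over the 24 alternatives the log2 difference was 0.97 to 6.97. Day 16 also differed from day 2 (limma adjusted p = 3.5e-05), but its mean of 5.31 did not exceed that limit, so no fold is given. Normexp background correction ended the day 16 call (limma adjusted p = 0.14).

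miR-30c-2* and miR-29c* were called in both comparisons under each alternative tried, but the size varied. The log2 difference of miR-30c-2* was 0.22 to 4.11 for day 9 and 0.18 to 3.47 for day 16. That of miR-29c* was 0.15 to 2.22 and 0.13 to 2.17. Neither strand was well above background on any whey array. The log2 signals of miR-30c-2* were at the floor of 0.00 on all 3 day 2 arrays, 3.98, 3.89 and 4.24 in day 9 whey, and 3.46, 3.39 and 3.35 in day 16 whey (limma adjusted p = 4.5e-07 and 1.2e-06 against day 2). miR-30c-1*, which has the same seed and the same guide strand, gave 2.38, 0.29 and 0.63 in day 2 whey, 0.00, 2.47 and 0.22 in day 9 whey, and 2.16, 2.47 and 1.97 in day 16 whey, and passed in neither. The difference between these 2 star strands was not tested.

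miR-29c* comes from a family whose guides are known to target collagen mRNAs. Its log2 signals were 2.60, 3.21 and 3.17 in day 2 whey, 4.29, 4.12 and 4.41 in day 9 whey, and 4.24, 3.84 and 4.29 in day 16 whey (limma adjusted p = 0.0004 and 0.0008). Both later days lay above day 2 without overlap. miR-181a* gave 3.04, 3.04 and 2.47 in day 2 whey, 4.33, 4.47 and 4.37 in day 9 whey, and 4.37, 4.79 and 4.53 in day 16 whey (limma adjusted p = 0.01 and 0.0052). No fold is given for these strands, since their signals lay near or under the background limit of the whey arrays. The day 9 call of miR-181a* was lost with percentile scaling, which sets each array by the 75th percentile of the miRNAs called on all 12, and with the Tukey-Kramer test of the study's methods adjusted over miRNAs (adjusted p = 0.077 and 0.076), and without rat 3 of day 2 it stood at 0.051.

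miR-30a* and miR-140* were detected on every array. miR-30a* gave log2 signals of 4.33, 4.33 and 4.61 in day 2 whey, 5.06, 5.10 and 5.18 in day 9 whey, and 5.46, 5.36 and 5.40 in day 16 whey. Day 16 exceeded day 2 at least 1.02-fold (limma adjusted p = 1.9e-05), and day 9 also passed (limma adjusted p = 0.00026). The day 9 call ended with percentile scaling and with normexp (adjusted p = 0.11 and 0.21). miR-140* gave 3.98, 4.16 and 4.72 in day 2 whey, 4.79, 5.21 and 4.84 in day 9 whey, and 4.91, 5.26 and 4.88 in day 16 whey. Day 2 did not overlap either later day, but the gap was small (limma adjusted p = 0.024 for day 9 and 0.012 for day 16). Of 24 alternatives 10 ended the day 9 call of miR-140*, including percentile scaling (adjusted p = 0.46) and leaving out rat 1 or 2 of day 2 or rat 2 of day 9 (adjusted p = 0.091, 0.077 and 0.089). Its day 16 call ended under 4 of 24, including percentile scaling and normexp (limma adjusted p = 0.28 and 0.06).

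Weaker strands complete the list. miR-30e*, whose probe differs from that of miR-30a* by 1 of 17 bases so that their signals may mix, gave 0.13, 2.12 and 1.90 in day 2 whey, 2.74, 3.11 and 3.26 in day 9 whey, and 3.21, 3.21 and 3.26 in day 16 whey (limma adjusted p = 0.01 and 0.005), and both calls ended with normexp (adjusted p = 0.16 and 0.14). miR-7a*, the passenger of a miRNA known from endocrine and nerve cells, gave 2.23, 2.51 and 2.28 in day 2 whey, 2.51, 2.89 and 2.89 in day 9 whey, and 2.89, 2.60 and 2.69 in day 16 whey. Its adjusted p was 0.04 for day 9 and 0.048 for day 16 in limma, and with the rat as a block it was 0.072 and 0.084, so both calls ended. They also ended without any of 5 and 7 single arrays, with adjusted p up to 0.12 and 0.16. let-7d* fell in day 16 against day 2 whey (limma adjusted p = 0.046) at signals of 0.00, 0.89 and 0.54 in day 16 whey against 1.33, 2.00 and 1.97 in day 2 whey. It was detected on no whey array, and leaving out any of 8 single arrays ended the call, with adjusted p up to 0.13.

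miR-378*, from a hairpin inside a gene of energy metabolism, did not pass between whey days in the quantile normalized values. It gave 4.61, 5.26 and 5.10 in day 2 whey, 5.21, 4.84 and 5.01 in day 9 whey, and 5.36, 4.84 and 5.01 in day 16 whey, and the groups overlapped.

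Between the mature milk days no star miRNA passed in limma (0 of 17, against 7.45% of all tested, 4.26% higher and 3.19% lower). Without adjustment 3 had p below 0.05 in limma, namely miR-30a*, miR-30c-2* and miR-99b*. By the study's Tukey-Kramer method 1 was called before adjustment over miRNAs and 0 after it. The median log2 difference of day 16 against day 9 whey was 0.00 over the 17 star miRNAs and 0.00 over all 188. The largest difference was that of miR-99b*, at -1.62 ± 0.51 (SE, n = 3 rats each; limma adjusted p = 0.088). It was lower on day 16 in 3 of 3 rats without overlap. Without rat 2 of serum, which enters the fit through the shared spread, miR-30c-2* passed (-0.63, limma adjusted p = 0.0082).

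**Figure D3:**
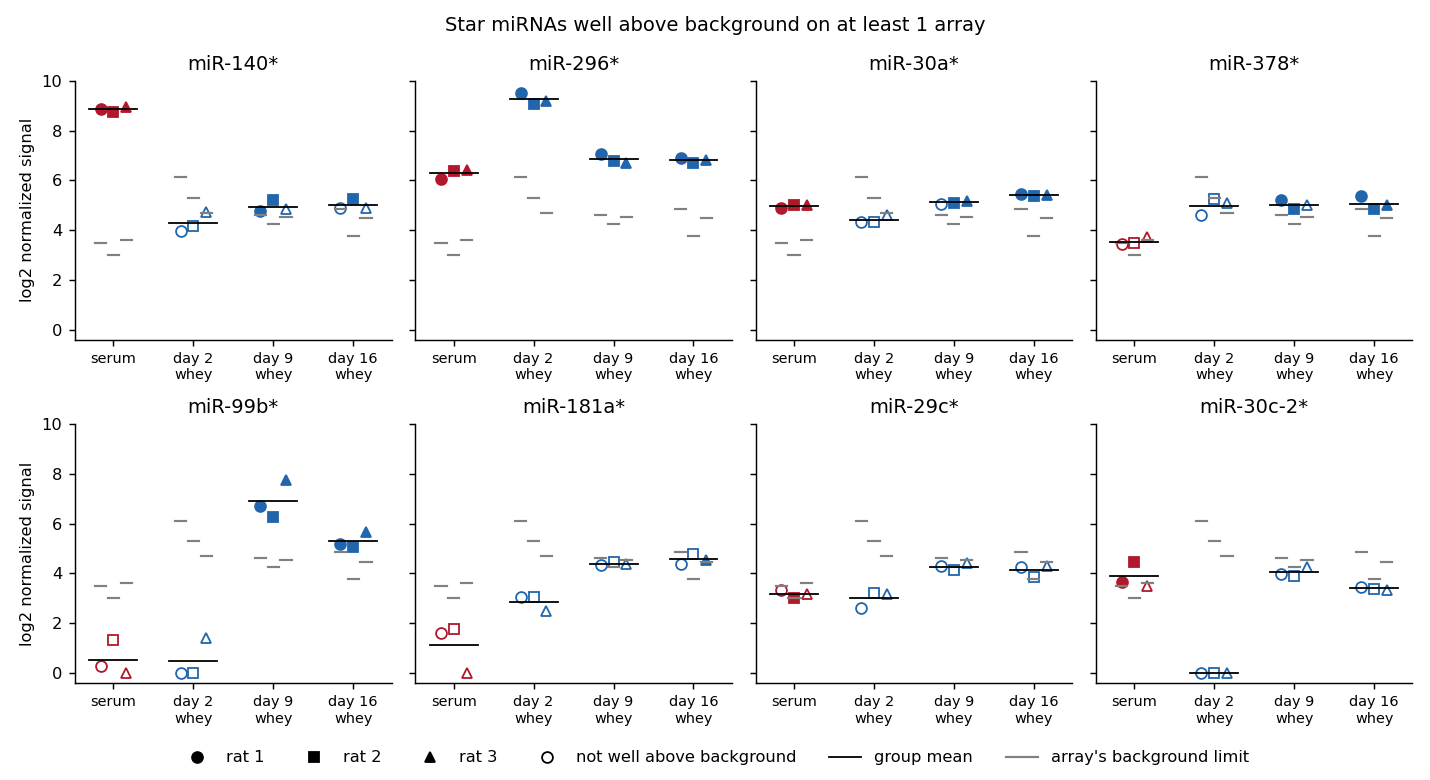
Normalized log2 signal of the 8 star miRNAs that stood well above background on at least 1 array, in serum (red) and in whey of days 2, 9 and 16 (blue), with a symbol per rat, open where the miRNA was not well above background, a black line at the group mean and a grey line at the array's background limit. miR-140* is high in serum, miR-296* in day 2 whey and miR-99b* in days 9 and 16 whey, whereas miR-29c* and miR-181a* lie near the grey lines in days 9 and 16 whey and below them in day 2 whey.

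Serum was compared with day 16 whey, on the same slide, to see how the star strands of milk differ from those of blood. In serum 2 star miRNAs were higher and 7 lower than in day 16 whey, so 9 of 17 passed, against 75% of all 188 tested miRNAs (36.2% higher and 38.8% lower). The median log2 difference was 0.00 over the 17 star miRNAs and 0.11 over all 188.

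miR-140* had the largest rise in serum among the star miRNAs. Its log2 signals were 8.87, 8.75 and 8.95 in serum against 4.91, 5.26 and 4.88 in day 16 whey. The serum values were close together and far above every whey array. The difference was 3.84 ± 0.20 (SE, n = 3 rats each; limma adjusted p = 5.1e-08) with 3 of 3 rats in the same direction, and it was 2.28 to 4.76 over the 24 alternatives. Before normalization the total signals were 994.3, 854.5 and 566.9 in serum against 19.4, 47.3 and 26.4 in day 16 whey. miR-338*, from a hairpin inside the span of Aatk that is known from nerve tissue, also passed (limma adjusted p = 2.7e-05). It gave 2.56, 2.56 and 1.40 in serum and 0.00 on all day 16 arrays, but was not well above background on any array. miR-330* was detected on all 3 serum arrays and on no whey array, at 1.88, 0.00 and 0.00 in serum and 0.00 on all day 16 arrays, and did not pass (limma adjusted p = 0.2).

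The strands that were lower in serum were led by miR-99b* and miR-181a*. miR-99b* gave 0.29, 1.30 and 0.00 in serum against 5.18, 5.06 and 5.67 in day 16 whey. Day 16 whey exceeded serum at least 3.85-fold, with the background limit in place of the serum signals (limma adjusted p = 1.2e-05). This strand was detected on 1 serum array and well above background on none. miR-181a* gave 1.59, 1.78 and 0.00 in serum against 4.37, 4.79 and 4.53 in day 16 whey (limma adjusted p = 2.2e-05). No fold is given for it, since it was well above background on only 1 of the 3 day 16 arrays. miR-378* gave 3.43, 3.49 and 3.71 in serum against 5.36, 4.84 and 5.01 in day 16 whey, at least 2.83-fold higher in day 16 whey (limma adjusted p = 4.6e-05). None of these 3 calls was lost under any of the 24 alternatives, but the least folds hold for the quantile normalized values only. Over the alternatives the log2 difference was -5.18 to -0.56 for miR-99b*, -3.76 to -0.32 for miR-181a* and -1.67 to -0.28 for miR-378*. Before normalization the total signals of miR-378* were 19.5, 20.7 and 15.8 in serum against 23.2, 35.9 and 29.0 in day 16 whey.

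The other 4 lower strands were called less firmly. miR-29c* gave 3.35, 2.99 and 3.17 in serum against 4.24, 3.84 and 4.29 in day 16 whey (limma adjusted p = 0.0011), and miR-7a* gave 1.48, 1.22 and 1.55 in serum against 2.89, 2.60 and 2.69 in day 16 whey (limma adjusted p = 1.5e-05). miR-30a* gave 4.91, 5.01 and 5.01 in serum against 5.46, 5.36 and 5.40 in day 16 whey, a difference of -0.43 ± 0.10 (SE, n = 3 rats each; limma adjusted p = 0.0021) that turned to 0.16 with percentile scaling and to 0.57 without normalization. miR-296* gave 6.07, 6.40 and 6.44 in serum against 6.92, 6.71 and 6.84 in day 16 whey, a difference of -0.52 ± 0.15 (limma adjusted p = 0.011) that likewise turned to 0.17 and 0.58. Without rat 1 of serum the call of miR-296* ended (adjusted p = 0.051). The direction of these last 2 strands between fluids is therefore set by the scaling. miR-29c* and miR-7a* kept their direction but lost the call without normalization (adjusted p = 0.92 and 0.24), and miR-29c* also with percentile scaling (-0.45, adjusted p = 0.06).

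The 3 other miR-30 strands did not pass between serum and day 16 whey. miR-30c-2* gave 3.67, 4.47 and 3.49 in serum against 3.46, 3.39 and 3.35 in day 16 whey (limma adjusted p = 0.074). miR-30c-1* gave 2.23, 3.43 and 2.38 in serum against 2.16, 2.47 and 1.97 in day 16 whey, and miR-30e* gave 3.30, 3.21 and 3.30 in serum against 3.21, 3.21 and 3.26 in day 16 whey. let-7d* gave 0.49, 0.40 and 1.97 in serum against 0.00, 0.89 and 0.54 in day 16 whey, with overlap.

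Whether a star and its partner changed by the same amount was tested on the difference of their log2 signals within each array. Where both lay at or near the floor in 1 group, this difference rests on the levels of the 2 probes in the other group. A partner can also pool several loci. miR-30c is the partner of both miR-30c-1* and miR-30c-2*. The RefSeq matches of miR-181a and miR-7a lie on chromosomes 3 and 1, those of their stars on 13 and 17. A change between loci was not told apart from one between strands. The fit held the 25 pairs of the array with both strands tested, here called hairpins. Of these 15 had a star, and p-values were adjusted over the 25. Between serum and day 16 whey 7 of 15 star hairpins passed, against 68.0% of the 25. In day 9 against day 2 whey 8 passed, against 48.0%, in day 16 against day 2 whey 9, against 52.0%, and in day 16 against day 9 whey 2, against 8.0%. Both strands were detected on every array of both groups for 6 of the 15 hairpins between serum and day 16 whey, and 3 of these passed, namely miR-140, miR-29c and miR-30c-2. For the whey comparisons with day 2 only miR-30a met that condition. All 8 hairpins called in day 9 against day 2 whey thus had a strand not detected on every array. The same held for 8 of the 9 called in day 16 against day 2 whey. In day 9 against day 2 whey the star gained on its partner for miR-181a, miR-29c, miR-30c-2, miR-30e, miR-378 and miR-99b, and lost on it for let-7d and miR-140. let-7d* was detected on no whey array, so the let-7d call rests on the partner, which rose by 1.27. The call for miR-181a ended or turned under 11 of 19 alternatives (adjusted p up to 0.23), and with normexp the direction turned for miR-181a and miR-29c, to -0.74 and -0.75. For miR-378 this rested on the partner in the quantile normalized values, where miR-378* hardly moved (limma adjusted p = 0.0053 for the difference between strands). The partner gave 3.39, 3.93 and 3.60 in day 9 whey against 4.72, 4.69 and 4.84 in day 2 whey, below the mean limit of both groups. Its unscaled total signals overlapped, at 7.2, 14.4 and 11.2 on day 9 against 9.9, 13.2 and 12.9 on day 2. Those of miR-378* were 24.9, 31.9 and 26.1 on day 9 against 9.2, 15.7 and 13.8 on day 2. Which of these 2 strands moved thus depended on the scaling. For miR-99b both strands were higher on day 9, the star by more (limma adjusted p = 7.2e-05). Both were at or near the floor in day 2 whey, so that call rests on the day 9 levels of 2 probes.

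Of the hairpins with both strands detected on all serum and day 16 arrays, miR-140 had the largest strand difference between the fluids. miR-140 gave log2 signals of 7.97, 7.97 and 7.85 in serum against 5.97, 6.03 and 6.12 in day 16 whey, a difference of 1.88 ± 0.14 (SE, n = 3 rats each; limma adjusted p = 8.4e-07). The star rose by 3.84 in the same comparison, so the strands differed by 1.96 ± 0.23 (SE, limma adjusted p = 2.8e-05, 0.97 to 2.09 over the alternatives). In day 9 against day 2 whey the order was the reverse. miR-140 gave 6.07, 6.15 and 6.03 in day 9 whey against 4.19, 4.67 and 4.79 in day 2 whey (limma adjusted p = 1.4e-05), and the star changed by less than miR-140 (limma adjusted p = 0.0061 for the difference between strands), with neither strand well above background in day 2 whey. Both strands thus rose in both comparisons, in unequal amounts, but 10 of 24 alternatives ended the day 9 call of miR-140*.

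For miR-29c the strands moved in opposite directions between the fluids in the quantile normalized values. miR-29c gave 8.95, 9.08 and 8.75 in serum against 8.15, 8.29 and 8.34 in day 16 whey, a rise of 0.67 ± 0.15 (SE, n = 3 rats each, limma adjusted p = 0.0022). miR-29c* was lower in serum as given above, but without normalization its difference was -0.04 (limma adjusted p = 0.92). The strands differed (limma adjusted p = 0.00017) under each of the 19 alternatives tried for hairpins, but miR-29c* was not well above background on the day 16 arrays. miR-378 gave 3.77, 3.98 and 3.98 in serum against 3.67, 3.60 and 3.49 in day 16 whey, with no call (limma adjusted p = 0.054), whereas miR-378* fell in serum, and the strands differed (limma adjusted p = 0.00017). miR-30c, the guide of miR-30c-2*, was lower in serum, at 5.26, 5.36 and 5.40 against 6.12, 5.87 and 5.74 in day 16 whey (limma adjusted p = 0.0013). The difference between these strands (limma adjusted p = 0.0076) was lost with 4 alternatives, the 3 other scalings and normexp.

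miR-99b gave 0.00 on all serum and day 2 arrays, 2.43, 2.64 and 2.81 in day 9 whey and 3.17, 3.46 and 2.86 in day 16 whey, and was called on 2 arrays, both of day 16. The star had its highest values on day 9 and miR-99b on day 16, and the strands differed in day 16 against day 9 whey (limma adjusted p = 0.04), a call that 9 of 19 alternatives ended. let-7d* and miR-23a* stayed at or near the floor in serum and day 16 whey, where the strand differences of both hairpins were called. Between serum and day 16 whey miR-23a, of the cluster with miR-27a and miR-24, rose by 2.43 ± 0.10 and let-7d changed by -3.23 ± 0.20 (SE, n = 3 rats each; limma adjusted p = 9.9e-09 and 1.6e-07). For miR-30a, the hairpin with both strands on all 12 arrays, the difference between strands did not pass between serum and day 16 whey (0.12 ± 0.22 SE, limma adjusted p = 0.64) or between days 9 and 2 (limma adjusted p = 0.17) by this test. In day 16 against day 2 whey it passed (0.64 ± 0.22 SE, limma adjusted p = 0.03), a call that 11 of 19 alternatives ended, with adjusted p up to 0.71, and that turned direction with normexp.

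**Figure D4:**
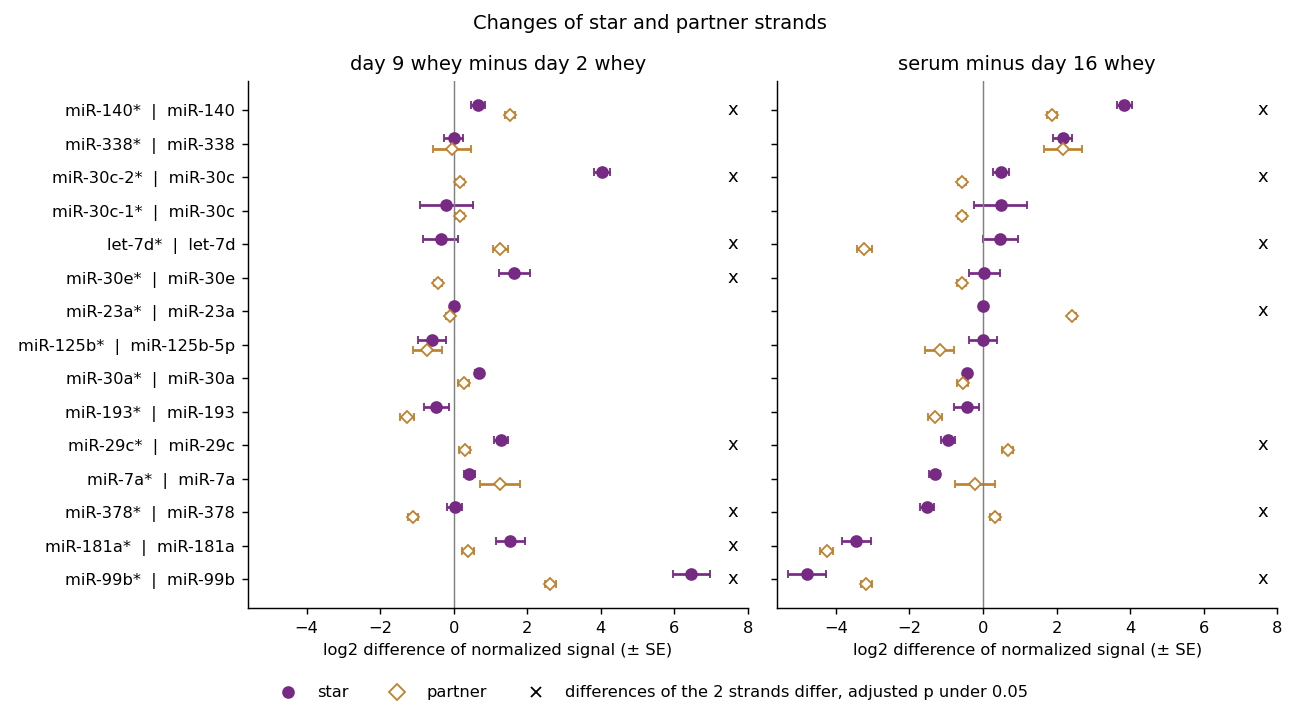
Fitted log2 differences (± SE) of the star strand (filled circles) and its partner (open diamonds) for the 15 hairpins with both strands tested, in day 9 minus day 2 whey (left) and serum minus day 16 whey (right); x marks hairpins whose strands differed in limma. Signals below 1 were set to 1, so differences of strands at background are not folds; in serum miR-140* lies to the right of miR-140, and miR-29c* and miR-378* lie left of 0 with their partners to the right.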

How the data were processed

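Total RNA of whey and serum was labelled with 1 dye and hybridized to 12 rat miRNA arrays. The authors extracted the scans with Agilent Feature Extraction 9.5.3.1. The deposited total intensity per miRNA is background-subtracted and not normalized between arrays. A deposited normalized table whose columns do not name samples was not used. Values were quantile normalized, as in the study's methods, set to at least 1, converted to log2 and fitted in limma 3.58.1 (R 4.3.3) with 4 group means, two-sided. The fit was tested on simulated data. Tables were made in Python 3.11.15. All star miRNAs detected on at least 1 array are named with values, the others by name. The members and lists were chosen with earlier results of these data known. None of the 66 pairs of arrays held identical values. Replicate numbers mark the same rats and so pair the samples. Deviations from group means of the same rat had a median correlation of 0.0426 over miRNAs (-0.0705 to 0.431, 18 pairs), against -0.034 for different rats (36 pairs), and the rat was a block in an alternative fit. Alternatives were 2 kinds of 75th-percentile scaling (by all miRNAs, or by those called on all 12 arrays), unscaled values, a floor of 5, normexp correction with an offset of 50, other filters, an intensity trend, only the compared arrays, the Tukey-Kramer test, and leaving out each array. The precision of a mean is limited by 3 arrays per group.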

Additional observations from a re-analysis of the deposited data

How the results depend on the processing

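Of the 9 star miRNAs called in day 9 against day 2 whey, 4 kept call and direction under all 24 alternatives (miR-296*, miR-29c*, miR-30c-2*, miR-99b*). In day 16 against day 2 whey 5 of 10 did (miR-181a*, miR-296*, miR-29c*, miR-30a*, miR-30c-2*), and between serum and day 16 whey 4 of 9 (miR-140*, miR-181a*, miR-378*, miR-99b*). Star calls in day 9 against day 2 whey dropped to 5 with 75th-percentile scaling by the miRNAs called on all 12 arrays and to 5 with the adjusted Tukey-Kramer test. In day 16 against day 9 whey, where 0 star miRNAs were called, 2 were with a floor of 5, 2 with only the compared arrays in the fit and 1 with the unadjusted Tukey-Kramer test. Over all miRNAs that comparison had 14 calls, and 27 with the 75th percentile of all miRNAs, 0 without normalization, 22 with a floor of 5, 1 with the adjusted and 22 with the unadjusted Tukey-Kramer test. Its 2 calls between strands became 0 with the 75th percentile of detected miRNAs, without normalization and with only the compared arrays, and 1 with the 75th percentile of all miRNAs, the floor of 5 or the rat as a replicate block. Between serum and day 16 whey the 7 calls between strands became 14 with a floor of 5. With detection on all 3 arrays, 3 star miRNAs in place of 6 were detected in day 2 whey. With the rat as a block, miR-7a* lost its calls in both comparisons with day 2, and miR-30a lost its call between strands in day 16 against day 2 whey (adjusted p = 0.051).

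Leaving out each array in turn gave 0 to 1 star calls and 8 to 20 calls over all miRNAs in day 16 against day 9 whey, and 0 to 3 calls between strands there. In day 16 against day 2 whey it gave 4 to 11 calls between strands, the 4 without rat 3 of day 16. The 8 calls over all miRNAs in day 16 against day 9 whey came from leaving out rat 1 of day 9. Star calls stayed at 7 to 9 in day 9 and 8 to 10 in day 16 against day 2 whey, and at 8 to 10 in serum against day 16 whey.

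Directions turned in 13 cases. With normexp, miR-7a* became -0.01 in day 9 and -0.09 in day 16 against day 2 whey, the strand difference of miR-181a became -0.74 and -0.5 in the same comparisons, that of miR-29c -0.75 in day 9 against day 2 whey, those of miR-30a and miR-30e -0.5 and -0.07 in day 16 against day 2 whey, and that of miR-30c-2 -0.01 in serum against day 16 whey. With a floor of 5 the strand difference of miR-7a became 0.34 in day 16 against day 2 whey. In serum against day 16 whey miR-296* became 0.17 and 0.58, and miR-30a* 0.16 and 0.57, with the 75th percentile of detected miRNAs and without normalization. These 2 scalings moved the median over all tested miRNAs there to 0.49 and 0.9, against 0.11, and without normalization it was 1.13 in day 9 against day 2 whey, against 0.08. The cause was not tested in any of these cases. The slide as a random block could not be fitted, since each group lies on 1 slide.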
